A study of Mus musculus with 64 samples.

Results

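The genes described here are 32 genes that are enriched in striatal projection neurons of both output pathways, taken as a given list from the 27179 gene identifiers counted in each library. Their levels were measured by RNA sequencing of striatum punches from 32 mice on the C57BL/6NJ background. In 16 mice the Cyfip2 genotype was N/N, labelled binge-prone, and in 16 it was N/-, labelled binge-resistant. All mice thus carried at least 1 copy of the N allele, and the labels do not describe the minus allele further, nor limit it to a cell type. Each genotype held 8 females and 8 males, 82 to 84 days old, whose tissue was taken on Day 24 straight after 5 min on an elevated plus maze. No training or diet group is given by the sample labels, so mice that differed in it could not be told apart.

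Striatal projection neurons, also called medium spiny neurons, are the inhibitory output cells of the striatum and its most numerous neurons. The direct pathway cells carry the dopamine receptor Drd1 and the indirect pathway cells Drd2. Both share a programme of transcription factors, among them Bcl11b and Foxp1, and retinoid signalling through Rarb and Rxrg. They also share a set of calcium, G protein and cAMP signalling proteins that are enriched in them. A striatal punch also holds interneurons, glia, vessels and, at its edges, cortex and white matter.

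The promoters of 3 of these genes are shown as examples, chosen after the motif matches were seen. Other genes, among them Arpp21 and Bcl11b, had matches closer to the start than those of Rxrg. RefSeq promoter windows of GRCm38.p6, running from 250 bases before to 50 bases after a start, were at hand for 23 of the 32 genes (44 windows). Rarb encodes retinoic acid receptor beta, and its window held a pair of nuclear receptor half-sites in a direct repeat 5 bases apart, which begins 53 bases before the start. Rxrg encodes the retinoid X receptor that pairs with it, and the window shown, taken because it held matches, had the single half-sites AGGTCA and AGTTCA. Ankrd63, a gene for an ankyrin repeat protein, held a TATA box 33 bases before its start. The capitals mark these matches, and each sequence ends at the base before the start.
Rarb, chr14:16575477-16575596, minus strand: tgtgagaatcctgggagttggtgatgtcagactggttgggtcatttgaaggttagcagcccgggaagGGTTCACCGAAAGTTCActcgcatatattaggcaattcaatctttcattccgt
Rxrg, chr1:167618085-167618264, plus strand: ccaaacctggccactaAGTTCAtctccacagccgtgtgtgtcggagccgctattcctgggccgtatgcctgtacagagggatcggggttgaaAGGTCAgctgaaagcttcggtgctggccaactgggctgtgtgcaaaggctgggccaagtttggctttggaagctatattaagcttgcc
Ankrd63, chr2:118703964-118704043, minus strand: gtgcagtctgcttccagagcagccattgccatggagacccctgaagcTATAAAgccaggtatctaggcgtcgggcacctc

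Motifs were searched on both strands in all 32851 windows of 300 bases, and single half-sites were also counted where they formed part of a repeat. A direct repeat spaced by 5 bases, with AGGTCA on either side or its variants AGTTCA (also counted alone) and GGTTCA in its place, was found in 20 windows, or 0.0609% of all, and Rarb was the single gene of the 23 that held it. The variant GGTTCA was added to this search after the windows had been read. AGGTCA stood in 5 of the 44 windows of these genes (5 of the 23 genes) and in 16.3% of all windows. AGTTCA stood in 6 of the 44 windows (6 of the 23 genes) and in 14% of all windows. TATAAA was found in 4 of the 23 genes, against 13.6% of all windows. The cAMP response element TGACGTCA (1.79% of all windows) and the forkhead motif TGTTTAC (3.65%) had no match in the 23 genes. A gene could hold several windows, so counts of genes and shares of windows are not on the same footing. A match is a description of letters only. Median GC content was 60.3% in the windows of these genes and 52.7% in all windows.

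The depth lay between 28.8 and 33.8 mega counts in each mouse, with a median of 31.8. The lowest count of any of the 32 genes in any mouse was 220. Cyfip2, the targeted gene, ranged from 928 to 1278 CPM (counts per mega counts of a library, scaled by TMM) in the N/N group and from 509 to 653 CPM in the N/- group. The ranges did not overlap, and the means were 1068 ± 96.4 and 597 ± 43.9 CPM (SD, n = 16 each). One library went against its sex label: N/N mouse 3, labelled female, had 36 reads of Xist, a transcript of the inactive X chromosome, while the other mice labelled female had at least 27239 and those labelled male at most 598. Results on sex are therefore given with and without it. Lanes named in the labels split the mice into batch A (10 N/- and 6 N/N) and batch B (6 N/- and 10 N/N), so genotype and batch were partly confounded, and batch was a term in the fits. The labels do not say that the mice came from separate litters, so p-values measure the spread between these mice.

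The presence of projection neuron RNA in the punches was read from 10 defining markers outside the list, among them Ppp1r1b, Drd1, Drd2, Penk and Adora2a. They summed to 5797 to 12430 CPM per mouse, and none was at 0. These values describe the punches and do not check the genes of the list. Levels of the 32 genes are compared per kilobase (kb) of exon, since longer transcripts yield more reads. Mean levels over the 32 mice spanned 353-fold on that scale, from Zfp503 at 2.44 ± 0.382 CPM per kb to Pcp4 at 861 ± 136 CPM per kb (SD, n = 32 each). Of the 31 neighbouring pairs in that order, 19 differed by less than the larger SD of the pair, so large parts of the order are not resolved.

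**Figure D1:**
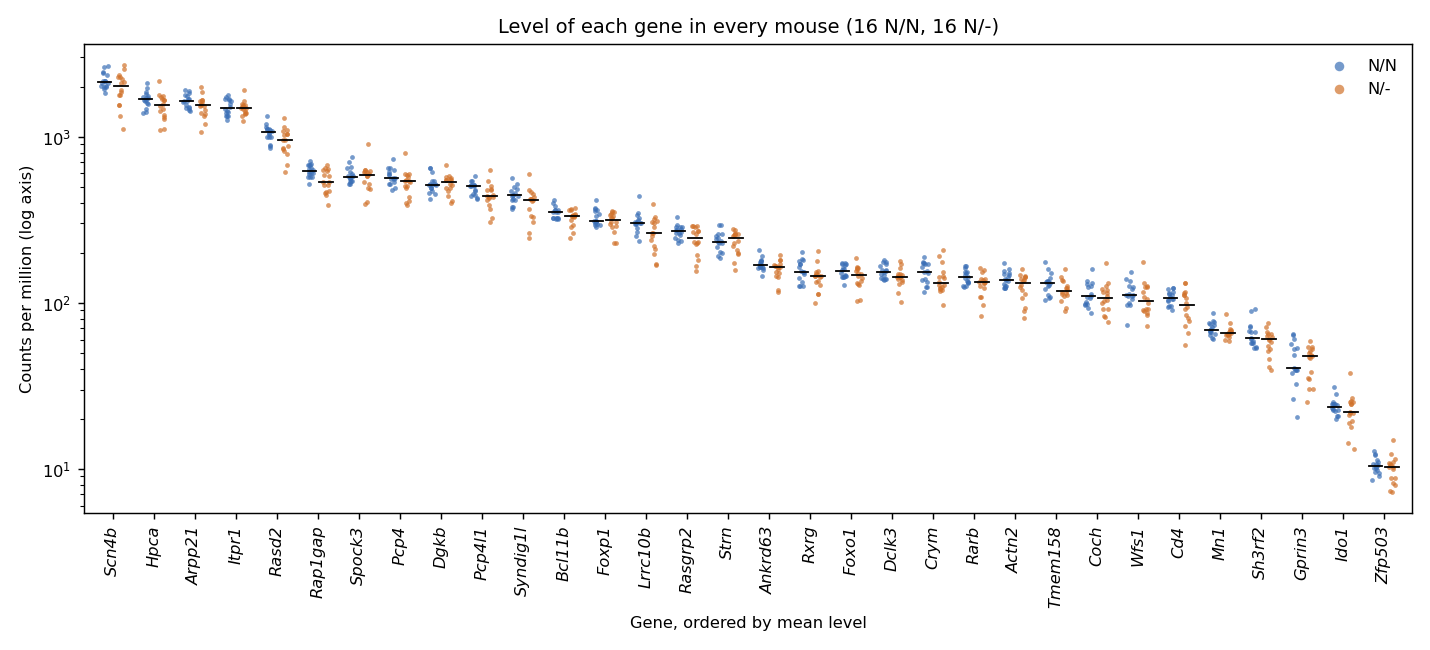
Level of each of the 32 genes in every mouse, in CPM on a log axis (not corrected for length), with N/N mice in blue, N/- mice in orange and a black bar at the median of 16 mice. The genotypes overlap for every gene, and the lowest points of most genes are orange.

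The 5 highest levels per kb were those of Pcp4, Hpca, Scn4b, Rasd2 and Pcp4l1. After Pcp4, a small protein that modulates calmodulin, came the neuronal calcium sensor Hpca (hippocalcin) at 551 ± 83.4 CPM per kb. Next stood Scn4b, an auxiliary beta subunit of voltage-gated sodium channels, at 417 ± 73.8 CPM per kb, and Rasd2 (Rhes), a small GTPase of the striatum, at 315 ± 50.6 CPM per kb. Pcp4l1, the paralogue of Pcp4, stood at 296 ± 43.1 CPM per kb, which differed from Rasd2 by less than the SD. The transcription factors were lower per kb than those 5 genes, and so were all other genes of the list. Rxrg was the highest of the 7 at 65.2 ± 10.8 CPM per kb, and Bcl11b (Ctip2), Foxp1 and Rarb lay at 41.6 ± 4.34, 40.5 ± 5.04 and 40.1 ± 5.68 CPM per kb, which their spread does not separate.

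No gene of the list differed between the genotypes past the threshold, and 30 of the 32 differences were negative (N/- minus N/N). In the edgeR quasi-likelihood test with batch and sex as terms, 2 of 16776 genes tested passed an adjusted p of 0.05, or 0.0119% of all, and neither was on the list. At an unadjusted p under 0.05 stood 4 of the 32 genes, all lower in N/-, against 6.46% of all genes in either direction and 2.12% in that direction. DESeq2 and limma voom also called none of the 32 genes, and each put 5 of them at an unadjusted p under 0.05. The shares of all genes at that p in those tools are not given here. The median difference (log2, N/- minus N/N) of the list was -0.12, beside -3.4e-05 over all genes tested, of which 50% were negative. The 32 genes share their libraries and rise and fall together, as described below, so that 30 of 32 in a direction is not 30 separate observations. In bulk tissue, fewer projection neurons in a punch and less RNA per neuron cannot be told apart.

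The 7 transcription factors all had negative differences, from -0.16 to -0.065 on the log2 scale, and none passed the threshold. Rarb, on chromosome 14 at 16430839 to 17082331 (GRCm38.p6), is the receptor whose promoter repeat is shown above. It ran from 124 to 167 CPM in N/N mice (median 142 CPM) and from 83.5 to 161 CPM in N/- mice (median 132 CPM). The ranges overlapped, and N/- mice 4, 9, 17, 5 and 8 lay under every N/N mouse, at 83.5, 96.7, 108, 109 and 122 CPM. Its difference was -0.16 (SE 0.072, unadjusted p = 0.035, edgeR adjusted p = 0.77). Its partner Rxrg differed by -0.15 (SE 0.082), and Bcl11b, a zinc finger factor needed for projection neurons to mature, by -0.10 (SE 0.053). The forkhead factors Foxo1 and Foxp1 differed by -0.092 (SE 0.064) and -0.087 (SE 0.064). The transcriptional coregulator Mn1 differed by -0.080 (SE 0.048) and Zfp503 (Nolz1), a zinc finger protein of the developing striatum, by -0.065 (SE 0.079).

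Of the 11 kinases, G protein regulators, calcium and phosphatase proteins, 9 had negative and 2 positive differences, and none passed the threshold. Rap1gap (chromosome 4, 137664711 to 137729861) encodes the GTPase activator that switches off the small G protein Rap1, and it had the smallest p of the list. It ran from 520 to 717 CPM in N/N mice (median 620 CPM) and from 387 to 670 CPM in N/- mice (median 534 CPM). The means were 624 ± 52.2 CPM for the N/N group and 543 ± 84.7 CPM for the N/- group (SD, n = 16 each), a difference of -0.16 (SE 0.058, unadjusted p = 0.0096, edgeR adjusted p = 0.77). Rasgrp2 (chromosome 19, 6398957 to 6415216) does the opposite as an exchange factor that switches Rap1 on. It ran from 229 to 329 CPM in N/N mice (median 270 CPM) and from 156 to 291 CPM in N/- mice (median 245 CPM), a difference of -0.15 (SE 0.078, unadjusted p = 0.066). The 2 regulators with opposite actions on Rap1 had differences of the same sign, which was also that of most genes of the list.

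Dclk3 (chromosome 9, 111439081 to 111489611), a doublecortin-like kinase, ran from 138 to 181 CPM in N/N mice (median 154 CPM) and from 102 to 178 CPM in N/- mice (median 143 CPM). Its difference was -0.13 (SE 0.059, unadjusted p = 0.036, edgeR adjusted p = 0.77). Pcp4l1 (chromosome 1, 171173264 to 171196268) ran from 420 to 577 CPM in N/N mice (median 502 CPM) and from 305 to 632 CPM in N/- mice (median 437 CPM). The N/- range held both the lowest and the highest mouse, and the difference was -0.14 (SE 0.074, unadjusted p = 0.064). Pcp4 differed by -0.13 (SE 0.078), as did Hpca (SE 0.076). Rasd2 differed by -0.15 (SE 0.081) and Arpp21, a cAMP-regulated phosphoprotein, by -0.11 (SE 0.066). Itpr1, the inositol trisphosphate receptor that releases calcium from stores, differed by -0.023 (SE 0.054). The 2 genes with a positive difference were Strn (striatin, a scaffold of protein phosphatase 2A complexes) at 0.0093 (SE 0.074) and Dgkb (a diacylglycerol kinase) at 0.0015 (SE 0.062). The sign of Dgkb turned with the scaling and the test, so its difference has no direction here.

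All 6 channel, membrane and surface genes had a negative difference, and none passed the threshold. Tmem158 (chromosome 9, 123259057 to 123260789), a transmembrane protein, ran from 103 to 176 CPM in N/N mice (median 132 CPM) and from 88.8 to 159 CPM in N/- mice (median 117 CPM). Its difference was -0.15 (SE 0.076, unadjusted p = 0.060). Syndig1l, a relative of a protein that promotes excitatory synapses, differed by -0.16 (SE 0.092). Wfs1 (wolframin, an endoplasmic reticulum membrane protein), Cd4 and Scn4b differed by -0.14 (SE 0.094), -0.12 (SE 0.088) and -0.11 (SE 0.088). Gprin3, which binds G proteins, had the widest interval, at -0.0014 (SE 0.14). The sign of Gprin3 turned with the test and with the mice used, so its difference has no direction here.

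The 8 cytoskeletal, scaffold, matrix and enzyme genes all had negative differences, and none passed the threshold. Lrrc10b (chromosome 19, 10455371 to 10457447), a leucine-rich repeat gene, ran from 235 to 440 CPM in N/N mice (median 303 CPM) and from 168 to 392 CPM in N/- mice (median 263 CPM). Its difference of -0.21 (SE 0.10, unadjusted p = 0.047, edgeR adjusted p = 0.77) was the largest of the list. Crym (chromosome 7, 120186380 to 120201989), a protein that binds thyroid hormone, ran from 116 to 189 CPM in N/N mice (median 154 CPM) and from 97.3 to 206 CPM in N/- mice (median 131 CPM), a difference of -0.17 (SE 0.086, unadjusted p = 0.062). Sh3rf2, a ubiquitin ligase with SH3 domains, differed by -0.16 (SE 0.091). Actn2, the actin crosslinker alpha-actinin-2, differed by -0.14 (SE 0.078) and Ankrd63 by -0.11 (SE 0.058). Ido1, which starts the breakdown of tryptophan to kynurenine, differed by -0.080 (SE 0.099). Coch (cochlin) differed by -0.065 (SE 0.086) and Spock3 (testican-3), both extracellular matrix proteins, by -0.044 (SE 0.079).

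**Figure D2:**
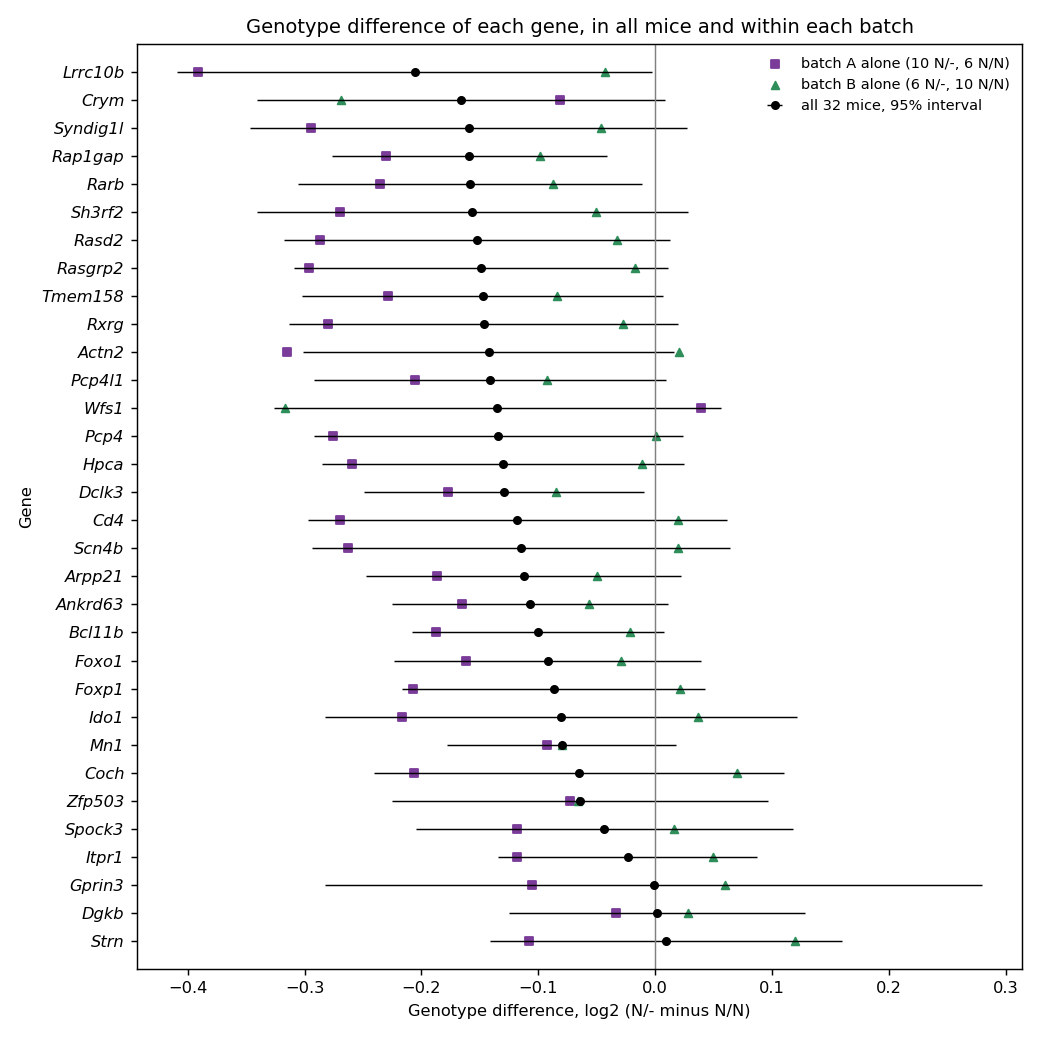
Genotype difference of each gene (log2, N/- minus N/N) in all 32 mice with its 95% interval (black), and the estimate within batch A (purple squares) and within batch B (green triangles). The squares lie left of 0 for 31 of the 32 genes, while the triangles lie on both sides of it.

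The estimates were not alike in the batches. Within batch A the median of the 32 genes was -0.21 and 31 were negative, while within batch B it was -0.028 and 20 were negative. Lrrc10b had medians of 246 CPM in N/- and 302.2 CPM in N/N mice of batch A, and of 309 CPM and 305 CPM in batch B. The difference itself between the batches was tested after these values were seen. In the edgeR interaction test of genotype by batch 0 of 16776 genes passed the threshold, or 0% of all, with 789 genes at an unadjusted p under 0.05, and DESeq2 and limma voom also called none. Actn2 alone of the list had an unadjusted p under 0.05 there (0.34, SE 0.15, p = 0.030, edgeR adjusted p = 1.0). Wfs1 and Crym, chosen after their values were seen, had estimates of the other order. Wfs1 differed by 0.039 within batch A and by -0.32 (SE 0.090, unadjusted p = 0.0026, edgeR adjusted p = 0.51) within batch B. Crym had medians of 144 CPM in N/- and 171 CPM in N/N mice of batch A, and of 123 CPM and 152 CPM in batch B. Its difference was -0.081 within batch A and -0.27 (SE 0.062, unadjusted p = 0.00033, edgeR adjusted p = 0.18) within batch B. In the edgeR interaction test Wfs1 had -0.36 (SE 0.18, unadjusted p = 0.053) and Crym -0.19 (SE 0.17, unadjusted p = 0.27). Neither was thus shown to differ between the batches.

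Cages and single mice moved the median of the list as well. Among the 21 mice of the 10 cages that held both genotypes, with the cage as a block, the median difference of the 32 genes was -0.049, and 26 were negative. N/N mouse 3 and N/- mice 4, 9 and 12 were not among the 21. The part of the block and that of leaving out these mice cannot be told apart. Leaving out 1 mouse at a time gave medians of -0.15 (without N/- mouse 12) to -0.093 (without N/N mouse 3). It put 1 (without mouse 3) to 16 (without mouse 12) of the 32 genes at an unadjusted p under 0.05. None of the 32 passed the threshold in any of these fits. The share of all genes at that unadjusted p in these fits is not given here, so the counts of 1 and 16 stand without a background. N/- mice 4 and 9 had all 32 genes below the mean of the gene over mice, and the median deviation of the 32 genes was -0.52 and -0.50 on the log2 scale. The next lowest mouse, N/- mouse 8, stood at -0.26, and mouse 3 had the highest value, 0.36, with none of the 32 genes below its mean. Without mice 4 and 9 the median difference was -0.075, 28 genes were negative, and Rap1gap remained as the single gene at an unadjusted p under 0.05 (-0.13, SE 0.053, p = 0.022, edgeR adjusted p = 1.0).

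The differences of the other projection neuron genes had the same sign. These 24 genes, none of them a member of the list, include the direct pathway genes Drd1, Tac1 and Pdyn, the indirect pathway genes Drd2, Penk and Adora2a, and shared signalling genes such as Ppp1r1b and Pde10a. All 24 had negative differences with a median of -0.15, 0 passed the threshold, and 8 had an unadjusted p under 0.05. The smallest p belonged to the substance P precursor Tac1 at -0.21 (SE 0.081), the dynorphin precursor Pdyn at -0.24 (SE 0.097), the tyrosine phosphatase Ptpn5 at -0.16 (SE 0.063) and the enkephalin precursor Penk at -0.21 (SE 0.087). The 16 cortical glutamatergic neuron markers had differences of the opposite sign. Of these, 15 of 16 were positive, with a median of 0.30, 0 past the threshold and 6 at an unadjusted p under 0.05. Their summed level ran from 685 to 1316 CPM in N/N mice (median 953 CPM) and from 648 to 2233 CPM in N/- mice (median 1094 CPM), and none was at 0 in all mice. Their most abundant gene by CPM was Slc17a7, the vesicular glutamate transporter of cortical neurons, at 200 to 1113 CPM, followed by Mef2c at 162 to 387 CPM. With the mean log2 level of these cortical markers as a covariate the median difference of the 32 genes was -0.032 and 22 were negative. With that of the 24 other projection neuron genes it was 0.013 and 9 were negative. These 24 genes had differences of the same sign, and the 32 genes rise and fall with them, as described below. This covariate thus takes out the shared difference by construction, and the value is not a test of genotype. The same limit holds for the cortical covariate. Its markers differed with the opposite sign, and the 32 genes fall as they rise, as described below. Whether cortical tissue in the punches had a part in the genotype difference was not tested.

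Among the remaining markers, oligodendrocyte genes (12 genes, median difference 0.015) and astrocyte genes (8 genes, median 0.0075) had values on both sides of 0. All 9 microglia genes and all 8 endothelial and mural genes had negative differences, with medians of -0.038 and -0.088. Of these lists, 0 and 3 genes stood at an unadjusted p under 0.05. The 9 striatal interneuron markers had a median of -0.14, with 6 negative, and 5 stood at an unadjusted p under 0.05, in both directions. Of these 5, Chat, Slc18a3 and Npy were lower in N/- mice (-0.21, -0.26 and -0.14). Vip and Pvalb were higher (0.56 and 0.39). The 6 tested genes of thalamus and neighbouring regions had a median of 0.21 and the 6 tested choroid plexus genes one of 0.031. None of these markers passed the threshold. Whether any of them had a part in the differences of the 32 genes was not tested.

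The genotype difference was negative for most of the list in both sexes. It had a median of -0.15 in females, with 31 genes negative, and of -0.096 in males, with 29 negative, and 0 of the 32 genes passed the threshold in either, beside 0.0119% of all genes in each sex. Without mouse 3 the median in females was -0.090 with 26 genes negative, and without mouse 12 it was -0.20. The genotype by sex interaction passed the threshold for 0 of 16776 genes, or 0%, in edgeR (292 at an unadjusted p under 0.05) and for none in DESeq2 or limma voom. Zfp503, chosen after its values were seen, was the single gene of the list with an unadjusted p under 0.05 there. It differed by -0.27 (SE 0.10) in females and by 0.13 (SE 0.098) in males, and the difference between the sexes was 0.40 (SE 0.14, p = 0.0070, edgeR adjusted p = 1.0). Without mouse 3 the value was 0.35 (SE 0.14, p = 0.018, edgeR adjusted p = 1.0).

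Between the sexes 18 genes differed past the threshold, or 0.107% of all, and none was on the list, with mouse 3 or without it. The 4 genes of the list with the smallest p on the lower side in males were Coch, Dgkb, Gprin3 and Itpr1, at -0.23 (SE 0.085), -0.13 (SE 0.061), -0.20 (SE 0.13) and -0.068 (SE 0.053). On the higher side they were Wfs1, Zfp503, Crym and Dclk3, at 0.19 (SE 0.090), 0.11 (SE 0.077), 0.081 (SE 0.083) and 0.046 (SE 0.058). Coch ran from 82.2 to 172 CPM in mice labelled female (median 122 CPM) and from 77.0 to 129 CPM in mice labelled male (median 102 CPM), so that the ranges overlapped. Its unadjusted p was 0.010 with mouse 3 and 0.027 without it, and the edgeR adjusted p was 0.73 and 0.85. Without mouse 3 the differences of Dgkb (unadjusted p = 0.087, against 0.038 with it), Gprin3 and Itpr1 were -0.11, -0.17 and -0.049. On the higher side Wfs1 was at 0.20 (unadjusted p = 0.040, against 0.045 with it), Zfp503 at 0.14, Crym at 0.091 and Dclk3 at 0.063. Tmem158 (0.092) and Foxo1 (0.070) then had smaller p than Crym and Dclk3. Over the list 19 of the 32 sex differences were negative in all mice, 10 without mouse 3 and 29 without mice 4 and 9, so the sign of most of them has no direction here. DESeq2 called 28 genes between the sexes and limma voom 18, again none of the 32.

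Between the batches 27 genes differed past the threshold in edgeR, or 0.161% of all, and 0 of the 32. DESeq2 called 97 genes and limma voom 27, also without any of the 32, and 1839 genes had an unadjusted edgeR p under 0.05. Rap1gap was higher in batch B by 0.18 (SE 0.058, unadjusted p = 0.0045, edgeR adjusted p = 0.22), followed by Cd4 at 0.19 (SE 0.088), Scn4b at 0.17 (SE 0.089) and Strn at 0.11 (SE 0.075). The smallest p on the lower side were those of Wfs1 at -0.15 (SE 0.095), Crym at -0.14 (SE 0.086), Rxrg at -0.064 (SE 0.082) and Tmem158 at -0.057 (SE 0.076). Rap1gap, the gene with the smallest genotype p, was thus also the one with the smallest batch p, and N/- mice were the larger share of batch A, where it was lower. Its genotype difference estimated within batch A was -0.23 (SE 0.10), and within batch B it was -0.099 (SE 0.058).

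The 32 genes varied more between mice of a group than most genes of their level. The residual SD, after genotype, sex and batch were taken out, had a median of 0.23 on the log2 scale over the list and 0.16 over all 16776 genes. All 32 lay above the median of the genes of similar mean level (the genes tested were split into 10 equal bins by mean log2 CPM), and 21 lay above the 90th percentile of their bin. Gprin3 had the largest residual SD at 0.41 and ran from 20.5 to 65.2 CPM over the 32 mice. Mn1 had the smallest at 0.14 and ran from 59.1 to 86.1 CPM.

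This variation was largely shared. Each gene was regressed on the mean log2 level of the 24 other projection neuron genes of the same mouse, centred over mice and called their score below, with genotype, sex and batch as terms. A slope of 1 means that a gene changed by the same factor as those genes did on average. The genes and the score come from the same libraries and share their scaling, so a slope describes how levels vary together and not what drives them. In edgeR 31 of the 32 genes rose with the score past the threshold, where 9.02% of all genes rose and 10.9% fell, and all 32 slopes were positive with a median of 0.98, beside -0.0092 over all genes.

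**Figure D3:**
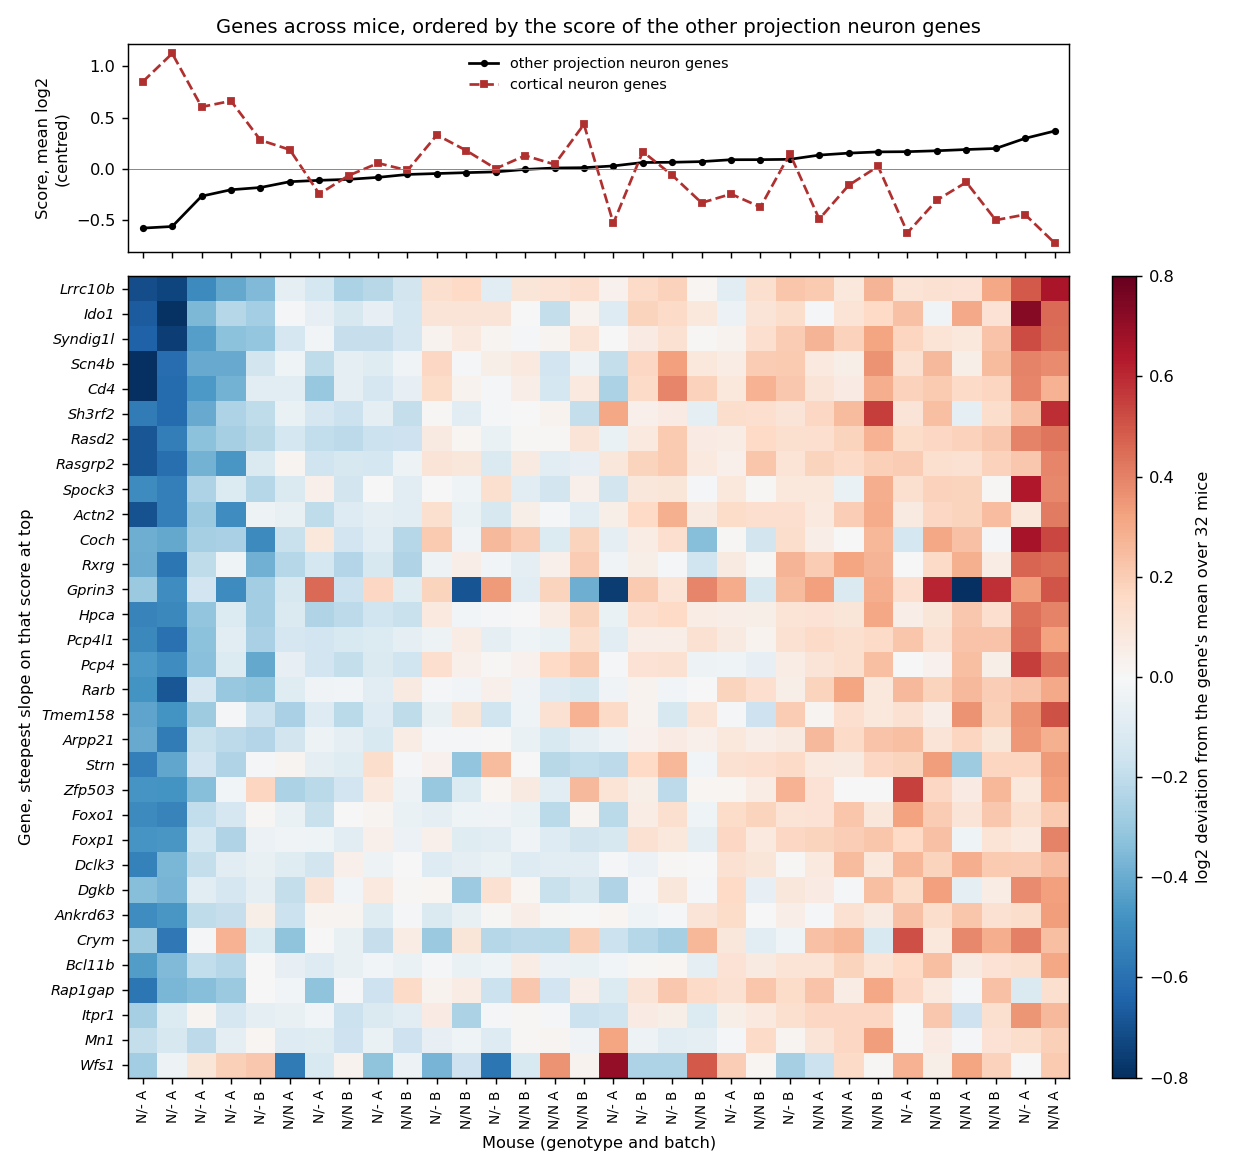
Deviation of each gene from its own mean over 32 mice (log2, colour), with mice ordered by the score of the 24 other projection neuron genes, drawn in black above with the score of the cortical markers in red. Most rows pass from blue at the left, where N/- mice 9 and 4 stand, to red at the right, while Wfs1 in the bottom row and Gprin3 do not follow the order of mice closely.

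The slopes ran from 0.30 to 1.36. The 4 genes with the smallest p were Rasd2 with a slope of 1.16 (SE 0.067), Syndig1l with 1.30 (SE 0.081), Pcp4l1 with 1.03 (SE 0.070) and Scn4b with 1.23 (SE 0.086). Rasd2 was at 614 CPM in N/- mouse 9 and 671 CPM in N/- mouse 4, and at 1328 CPM in N/N mouse 3 and 1299 CPM in N/- mouse 12. Scn4b ran likewise from 1114 CPM in mouse 9 to 2686 CPM in mouse 12. The 95% interval lay wholly above 1 for 6 genes and wholly below 1 for 8, and it held 1 for the other 18. The 6 were Lrrc10b (1.36), Ido1 (1.33), Syndig1l (1.30), Scn4b (1.23), Cd4 (1.22) and Rasd2 (1.16). The 8 were Dclk3 and Dgkb (both 0.78), Ankrd63 (0.77), Bcl11b (0.71), Rap1gap (0.63), Itpr1 (0.55), Mn1 (0.43) and Wfs1 (0.30).

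Wfs1 was the exception, with a slope of 0.30 (SE 0.24, 95% interval -0.19 to 0.79, edgeR adjusted p = 0.44). Its level over the 32 mice ran from 72.9 CPM (N/- mouse 30) to 177 CPM (N/- mouse 2), a span of 2.43-fold beside 2.41-fold for Scn4b. It was 106 CPM in mouse 4 and 89.6 CPM in mouse 9, and 126 CPM in mouse 3, so the mice at the ends of the score lay inside its range. Within batch A alone its slope was 0.57 (SE 0.27, unadjusted p = 0.049, edgeR adjusted p = 0.20), and within batch B alone -0.23 (SE 0.45). Crym had a slope of 0.75 (SE 0.18) in all mice, of 0.98 (SE 0.20, edgeR adjusted p = 0.0033) in batch A alone and of 0.20 (SE 0.30) in batch B alone. The difference between the batches was not tested.

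**Figure D4:**
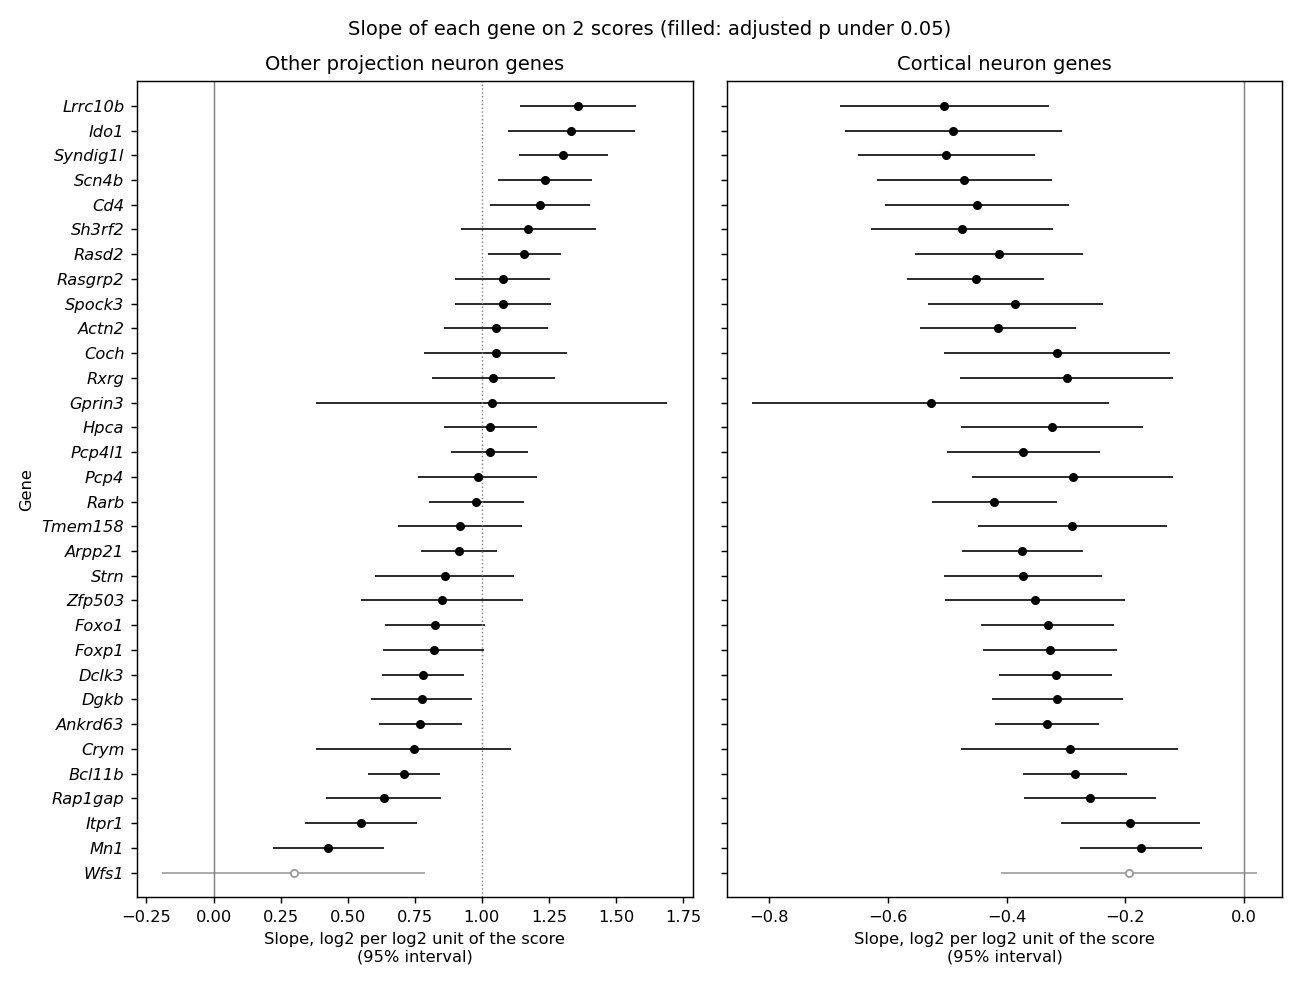
Slope of each gene (log2 per log2 unit, 95% interval) on the score of the 24 other projection neuron genes (left, with a dotted line at 1) and on the score of the 16 cortical markers (right). Filled black points passed an adjusted p of 0.05, and Wfs1, in open grey, did not in either panel.

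The shared variation was present in both batches and without the mice at the low end. In batch A alone 30 of the 32 genes rose with the score, beside 5.96% of all genes, and in batch B alone 22 did, beside 1.67%. Without mice 4 and 9 the count was 29, beside 5.69% of all genes, and the median slope was 1.05. Gprin3 and Crym no longer passed then, with edgeR adjusted p of 0.13 and 0.056, and Gprin3 also lost its call without mouse 4 alone (adjusted p = 0.054). Leaving out 1 mouse at a time left 30 or 31 genes past the threshold.

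**Figure D5:**
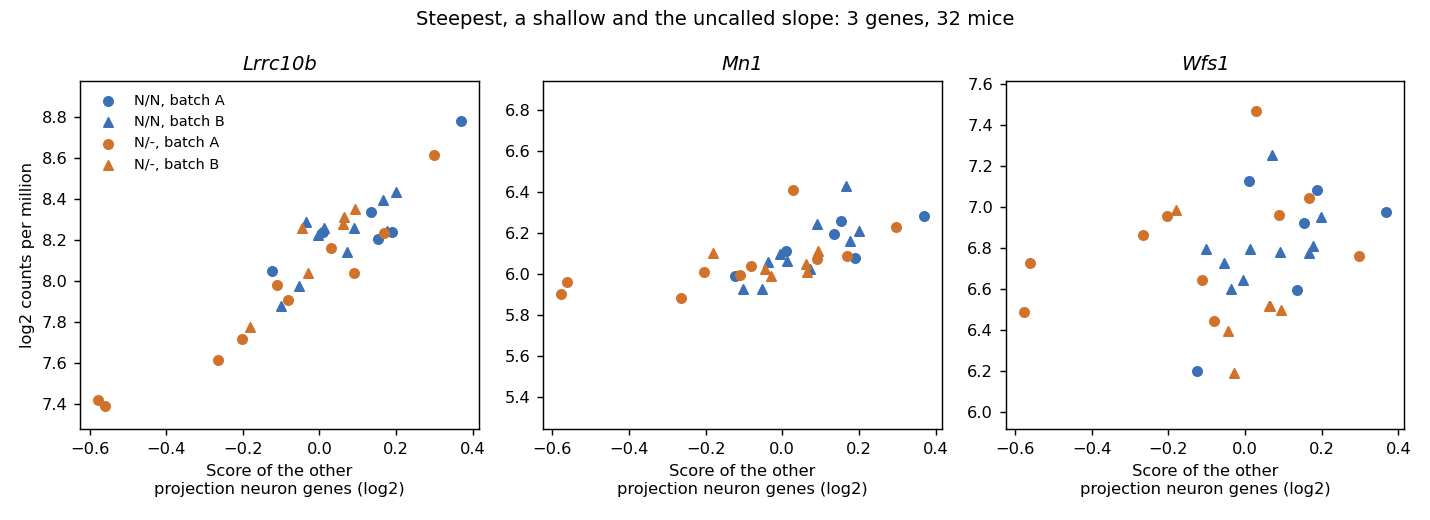
Level (log2 CPM) of Lrrc10b, Mn1 and Wfs1 in each of 32 mice against the score of the other projection neuron genes, with colour for genotype and shape for batch, on axes of equal span. Lrrc10b follows the score most steeply, Mn1 weakly, and Wfs1 shows no order by it.

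The slopes on the cortical neuron markers had the opposite sign. In edgeR 31 of the 32 genes fell as the score of the 16 cortical markers rose, where 7.26% of all genes fell and 10.7% rose. All 32 slopes were negative, with a median of -0.34 beside -0.0050 over all genes. The smallest p belonged to Rarb with a slope of -0.42 (SE 0.052), Rasgrp2 with -0.45 (SE 0.056), Ankrd63 with -0.33 (SE 0.043) and Arpp21 with -0.37 (SE 0.050). Wfs1 was again the exception, at -0.19 (SE 0.11, edgeR adjusted p = 0.24). N/- mice 4 and 9, the lowest for the list, had the highest cortical scores, 1.13 and 0.85 on the log2 scale, and mouse 3, the highest for the list, had the lowest, -0.72.

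The count of calls was not alike in the batches, and the difference between them was not tested. In batch A alone 28 of the 32 genes fell with the cortical score, beside 4.28% of all genes, and in batch B alone 3 did (Dclk3, Gprin3 and Strn), beside 1.91%, although 28 slopes were negative there. Cortical scores spanned -0.72 to 1.13 in batch A and -0.50 to 0.43 in batch B. Without mice 4 and 9 the count was 23, beside 4.28% of all genes, with all 32 slopes negative and a median of -0.28. Without mouse 4 alone it was 27, and Coch, Crym, Pcp4 and Rxrg then missed the threshold. Coch also missed it without mouse 9 and Crym without N/- mouse 16.

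Both scores were then put into the same fit. They ran against each other across mice, as the values of mice 3, 4 and 9 show. With the cortical score held, 28 of the 32 genes rose with the projection neuron score, beside 17.1% of all genes, with a median slope of 0.87. With the projection neuron score held, 0 of the 32 genes fell with the cortical score, beside 14.7% of all genes, and 6 rose with it, beside 17% of all genes. The count of 6 is close to the share of all genes, so it is not particular to the list. The 6 genes, named after their values were seen, were Rxrg at 0.37 (SE 0.070), Coch at 0.34 (SE 0.095), Pcp4 at 0.33 (SE 0.072), Hpca at 0.28 (SE 0.052), Tmem158 at 0.23 (SE 0.087) and Rasd2 at 0.15 (SE 0.049). For each of them the sign turned from that of the fit without the projection neuron score. Expression of these 6 in cortical neurons themselves was not measured here.

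Myelin genes were used as a further comparison. On the score of 12 oligodendrocyte markers 0 of the 32 genes had a slope past the threshold in edgeR, where 3.28% of all genes did, and 1 of the 32 (Zfp503, 0.36, SE 0.16, unadjusted p = 0.035) had an unadjusted p under 0.05. The count of 0 is close to the share of all genes, so it is not particular to the list. The median slope was 0.12 and 4 slopes were negative. DESeq2 and limma voom called none of the 32 on that score either. Oligodendrocyte markers summed to 6879 to 13320 CPM per mouse over both genotypes.

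Cd4 is known as the coreceptor of helper T cells, and its level was therefore set beside T cell genes. It ran from 55.7 to 131 CPM over the 32 mice. The T cell receptor complex genes Cd3e, Cd3d and Cd3g had at most 4, 1 and 2 reads in any mouse and none in 12, 26 and 18 of the 32 mice, and Cd8a had at most 4 reads. Lck had the highest CPM of the T cell markers, at 1.39 to 2.78 CPM, and Trac was at 0.170 to 0.782 CPM. Cd4 followed the score of the other projection neuron genes with a slope of 1.22 (SE 0.091, edgeR adjusted p = 5.6e-12), beside 1.23 for Scn4b.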

How the data were processed

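Each of the 32 mice had 2 deposited tables of raw read counts per gene, whole numbers that the authors had not normalized, 1 for each sequencing run. The submitters' processing notes list FastQC 0.11.3, Subread with featureCounts, edgeR 3.8.6, limma 3.22.7 and the build mm10, while TopHat and HTSeq appear in the design text of the series. The library kit keeps strand, per the labels, but whether counting used it is not stated there. Counts of overlapping genes and of the paralogues Pcp4 and Pcp4l1 are therefore less certain.

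Both runs of a mouse were summed, after each of the 64 had its highest correlation with its partner. Of 27179 identifiers, 25275 matched a symbol in the RefSeq table of GRCm38.p6, and the 1904 others held 0.766% of the counts. The filter filterByExpr left 16776 genes out of 23165 that had any count. Libraries were scaled by TMM (factors of 0.931 to 1.03) and genes tested with the robust quasi-likelihood test of edgeR 4.0.16 in R 4.3.3 with batch, sex and genotype as terms. P-values were adjusted over all genes tested (Benjamini and Hochberg, threshold 0.05). SE is the absolute log2 difference over the square root of F. CPM values are scaled by TMM, scores use log2 CPM with a prior count of 2, and exon lengths are unions of GENCODE basic exons. Alternatives were DESeq2 size factors, no filter, DESeq2 1.42.0, limma voom (3.58.1), no batch term, each batch alone, cage as a block, scores as covariates and each mouse left out. The fits were tested on simulated data.

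The 32 genes, the lists and the tests were chosen with earlier results of these data known. All 32 genes are named with their genotype difference. Ranges over mice are given for the 8 with the smallest p, and for slopes, sex and batch the 4 with the smallest p in each direction. Of other lists, the 4 projection neuron genes with the smallest p and the 2 most abundant cortical markers are named. The 5 interneuron markers at an unadjusted p under 0.05 are named too, after their values were seen. The interaction of genotype with batch and the fits without mice 4 and 9 were added after seeing the data. Protein sequences were not used here. Replicate numbers are mouse numbers and pair no mice across genotypes.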

Additional observations from a re-analysis of the deposited data

How the results depend on the processing

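The count of 0 genes of the list past the threshold for genotype, sex, batch, the genotype by sex interaction and the oligodendrocyte slope was the same under every alternative run. Of the 77 values of named genes followed through the alternatives, 44 kept their sign in all of them. Leaving out 1 mouse at a time gave 29 to 32 negative genotype differences, 30 to 31 genes past the threshold on the projection neuron score and 27 to 31 on the cortical score. Counts that differed from the main one by more than 1.5 times were that of negative genotype differences with the projection neuron score as a covariate (9) and that of genes falling with the cortical score in batch B alone (3) and with the projection neuron score added (0). As a covariate, either score takes out by construction what the 32 genes share with it. Smaller shifts were 20 negative genotype differences in batch B alone, 22 with the cortical score and 26 with the cage block, 22 genes on the projection neuron score in batch B alone, and 23 on the cortical score without mice 4 and 9. The cause was not tested for these or for the signs below.

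The genotype difference of Dgkb (log2) turned to -0.0025 with DESeq2 size factors and with DESeq2, to -0.0059 without the filter and to -0.0012 with limma voom, where Gprin3 was 0.030. Without a batch term the values were Dgkb -0.0034 and Strn -0.015. In batch A alone they were Dgkb -0.033, Strn -0.11 and Wfs1 0.039, and in batch B alone Foxp1 0.021, Pcp4 0.00063, Itpr1 0.050, Scn4b 0.020, Gprin3 0.059, Cd4 0.019, Actn2 0.020, Spock3 0.016, Coch 0.070 and Ido1 0.037. With the cage as a replicate block they were Zfp503 0.037, Itpr1 0.019, Gprin3 0.13 and Wfs1 0.0053, and this pairing by cage changed no call. With the cortical score as a covariate they were Foxp1 0.0033, Zfp503 0.029, Itpr1 0.032, Scn4b 0.0051, Gprin3 0.16, Spock3 0.054, Coch 0.014 and Ido1 0.039. With the projection neuron score they were Bcl11b 0.0042, Foxp1 0.034, Rxrg 0.0038, Foxo1 0.026, Zfp503 0.061, Rasd2 0.011, Hpca 0.016, Arpp21 0.016, Pcp4 0.00079, Pcp4l1 0.0011, Itpr1 0.059, Scn4b 0.053, Gprin3 0.15, Syndig1l 0.016, Cd4 0.046, Actn2 0.0094, Sh3rf2 0.014, Ankrd63 0.0052, Spock3 0.11, Coch 0.084 and Ido1 0.096. Without mice 4 and 9 they were Gprin3 0.046 and Spock3 0.011, and the sex difference of Dclk3 was -0.014, 1 of several that turned, since 29 of the 32 were then negative against 19 in all mice. Leaving out 1 mouse at a time, Dgkb ranged from -0.023 to 0.031, Gprin3 from -0.062 to 0.046 and Strn from -0.010 to 0.050.

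The slope of Wfs1 on the projection neuron score was -0.23 in batch B alone and -0.19 with the cortical score added. Slopes on the cortical score turned in batch B alone to Pcp4 0.052, Rxrg 0.043, Tmem158 0.17 and Zfp503 0.035, and with the projection neuron score added to Cd4 0.10, Ido1 0.12, Lrrc10b 0.11, Pcp4l1 0.11, Scn4b 0.060, Spock3 0.14, Syndig1l 0.037, Coch 0.34, Hpca 0.28, Itpr1 0.098, Pcp4 0.33, Rasd2 0.15, Rxrg 0.37 and Tmem158 0.23. Over all genes, batch calls went from 27 in edgeR to 97 with DESeq2 and 18 without the filter, and from 8 (without mouse 3) to 72 (without mouse 15) when 1 mouse was left out, and sex calls from 18 to 28 with DESeq2. Depth was not varied, and each of the 32 genes had at least 220 reads in every mouse.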
